A study of Mus musculus with 8 samples.

Results

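A group of 7 rows of the expression table, out of 56576, was described: 2210418O10Rik // Gm14296, Gm14295, Gm14403, Gm14322, Gm14325, Gm14326 and Zfp971. All of them lie in a cluster of zinc finger genes near the distal end of mouse chromosome 2, and all start within a stretch of 1.81 Mb. They were selected on the values described here, because their normalized counts were at or near 0 in the mutant libraries. The difference between genotypes in these rows is therefore given as a description, with no test.

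Zinc finger proteins of the C2H2 class bind DNA through tandem fingers, each folded around a zinc ion. Many of those encoded in rodent clusters carry an amino-terminal KRAB domain, which recruits the corepressor Trim28 (also called KAP1) and, through it, enzymes that lay down repressive chromatin. The clusters grow by tandem duplication, so neighbouring genes are often near copies of each other, and several such families are known to silence transposable elements.

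The libraries came from cerebral cortex synaptosomes, a fraction of pinched-off synaptic terminals, of mice at postnatal day 15. The control group was Lhx6-Cre;Erbb4+/+;Rpl22HA/HA and the mutant group Lhx6-Cre;Erbb4F/F;Rpl22HA/HA, with 4 libraries in each. Lhx6-Cre drives recombination in cortical interneurons that derive from the medial ganglionic eminence (MGE) or the preoptic area. There it removes the floxed part of Erbb4, the receptor of neuregulins, in the mutants only, and in both groups it switches on a haemagglutinin-tagged form of the ribosomal protein Rpl22, whose pulldown gave the sequenced RNA. Both groups thus carried the Cre and the tagged Rpl22 allele. By the study's methods the replicates are biological, each from another brain and litter, although the labels name no animal. The study also mentions sequencing in a pair of batches, which the labels do not assign to libraries, so batch could not be fitted by name.

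Depth ran from 51010687 to 80226984 recovered reads in a library. Values are normalized counts, that is, reads divided by a library's size factor, so that 1 read is worth about 1 unit. Erbb4 had 1640, 5377, 4306 and 3034 normalized counts in control replicates 1, 3, 4 and 5, and 1711, 1648, 1233 and 1048 in mutant replicates 2, 3, 4 and 5. Control replicate 1 thus lay among the mutants for the targeted gene (log2 difference -1.24 ± 0.34 SE, unadjusted p = 0.00412 and adjusted p = 0.58, limma). The 13 markers of these interneurons, from Lhx6 to Pvalb and Sst, were all above 0. Their summed normalized counts ranged from 78020 to 608900 in controls and from 28580 to 230600 in mutants. Markers of other cells were present too: all 10 oligodendrocyte markers, for example, were above 0 and summed to 228200 to 665700 in controls and to 198900 to 284800 in mutants. The 10 endothelial and mural markers summed to 164700 to 274000 and to 262200 to 280300. The part of these markers in the results on the zinc finger genes was not tested, and in bulk RNA fewer cells of a type and less RNA per cell cannot be told apart.

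The genes of the cluster resemble each other in front of their starts. Of the 8 genes in the 7 rows, 7 had an entry in the RefSeq promoter table, which holds 250 bases before and 50 after each annotated start; Gm14296 had none. The longest run of bases that all 7 entries share exactly was 54 bases long. The last 160 bases before the start are shown for 5 of them, because they cover the range of the mutant values, from no read to low counts in every library. They are read from RefSeq (GRCm38.p6, the assembly of mm10) in the direction of transcription, with the shared run in capitals. The windows are chr2:176226405-176226564 (plus strand) for 2210418O10Rik, chr2:176798440-176798599 (plus strand) for Gm14295, chr2:177840337-177840496 (minus strand) for Gm14325, chr2:177957289-177957448 (minus strand) for Gm14326 and chr2:178023124-178023283 (plus strand) for Zfp971.
2210418O10Rik: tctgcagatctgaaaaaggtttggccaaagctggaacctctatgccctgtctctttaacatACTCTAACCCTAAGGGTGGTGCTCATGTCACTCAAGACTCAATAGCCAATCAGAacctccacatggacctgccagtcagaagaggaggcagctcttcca
Gm14295: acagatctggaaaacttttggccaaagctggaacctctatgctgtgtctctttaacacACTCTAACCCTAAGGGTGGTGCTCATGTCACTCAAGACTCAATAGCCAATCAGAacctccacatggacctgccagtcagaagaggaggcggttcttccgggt
Gm14325: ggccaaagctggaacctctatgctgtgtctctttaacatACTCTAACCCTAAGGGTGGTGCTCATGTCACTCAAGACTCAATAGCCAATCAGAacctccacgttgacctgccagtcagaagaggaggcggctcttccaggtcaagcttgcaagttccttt
Gm14326: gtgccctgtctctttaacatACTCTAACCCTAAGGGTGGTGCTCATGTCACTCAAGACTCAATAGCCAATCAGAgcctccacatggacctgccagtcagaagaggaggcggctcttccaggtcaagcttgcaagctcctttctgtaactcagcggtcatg
Zfp971: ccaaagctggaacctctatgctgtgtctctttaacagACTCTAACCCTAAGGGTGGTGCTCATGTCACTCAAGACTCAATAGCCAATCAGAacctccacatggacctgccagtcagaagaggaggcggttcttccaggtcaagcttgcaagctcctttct

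The shared run began 99 bases before the annotated start in 2210418O10Rik, 102 in Gm14295, 121 in Gm14325, 123 in Zfp971, 129 in Gm14403, 132 in Gm14322 and 140 in Gm14326. With the 60 bases on either side of it, a window of 174 bases, the 21 pairs among the 7 genes were 93.1% to 98.3% identical, with a median of 96.6%. The 54 bases of the run are identical by its definition, which raises these values. Over the 250 bases before the annotated starts the identity was 68.8% to 94.4%, with a median of 83.3%. There the starts are annotated at different distances from the run, and the run fills a smaller part of the window. In the whole promoter table, searched on both strands, the run of 54 bases was found in 30 of 32851 entries (0.0913%). Those 30 entries belonged to 26 genes, all on chromosome 2 and between 175206875 and 178023333. A shared run is a description of sequence and does not show that a factor binds there.

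A pair of neighbours outside the stretch is shown for comparison, since the rows of both had reads in most or all mutant libraries. Nearly all of the transcript sequence of Gm2026 is also found in other genes (shares below). The reads of its row can therefore hardly be assigned to it. Gm2026 (chr2:175965195-175965354 (plus strand)) held the run exactly. Zfp931 (chr2:178078426-178078585 (minus strand)), just beyond Zfp971, differed from it by A41C and G45A, counted from the 5′ end of the run, with the run's base first. Capitals mark bases equal to the run.
Gm2026: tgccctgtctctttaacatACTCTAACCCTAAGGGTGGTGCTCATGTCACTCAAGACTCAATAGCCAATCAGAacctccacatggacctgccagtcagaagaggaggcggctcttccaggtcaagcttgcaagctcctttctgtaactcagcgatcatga
Zfp931: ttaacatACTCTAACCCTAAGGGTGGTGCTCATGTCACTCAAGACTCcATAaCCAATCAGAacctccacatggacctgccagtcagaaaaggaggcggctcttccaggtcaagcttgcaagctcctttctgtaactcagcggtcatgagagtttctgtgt

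Ordered along the chromosome (mm10), the first row was 2210418O10Rik // Gm14296 (chr2:176226565-176261872, plus strand). This row joins 2 genes that are near copies and carries the position of the first, so its reads cannot be given to either gene. It had 1427, 2185, 1693 and 2138 normalized counts in control replicates 1, 3, 4 and 5. In the mutants it had 0, 0, 0 and 0.9923, the last being a single read in replicate 5. The control mean was 1861 ± 364.3 (SD, n = 4), with the smallest coefficient of variation of the 7 rows (19.6%). The control mean was 7884 times the level of the pooled mutant libraries, with a 95% counting interval of 1415 to 311400 because the mutant value rests on 1 read.

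Gm14295 (chr2:176798600-176808702, plus strand) had 789.4, 605.6, 270.2 and 338.9 normalized counts in the controls and 0 in all 4 mutants. Its longest annotated coding sequence encodes 25 C2H2 fingers, the most of the 7 rows. Taking the floor of 3 reads over the mutant group, the controls (501 ± 240.6, SD, n = 4) were at least 707.4-fold higher. This gene had its lowest control value in replicate 4, unlike its neighbours.

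Gm14403 (chr2:177498206-177512311, plus strand), which encodes 9 fingers, had 434.9, 101.6, 618.5 and 218.9 normalized counts in the controls. No read was counted in any mutant. The controls (343.5 ± 229.5, SD, n = 4) were at least 485.0-fold higher, against the same floor.

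Gm14322 (chr2:177759285-177773273, plus strand), with 8 fingers, had 79.07, 58.51, 262.2 and 258.5 normalized counts in the controls and 0.855, 0, 0 and 0 in the mutants. Its mutant value was a single read in replicate 2. The 58.51 of control replicate 3, which is 57 reads, was the lowest control value of any of the 7 rows. The control mean was 697.1 times the level of the pooled mutant libraries, with a 95% counting interval of 125.1 to 27540.

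Gm14325 (chr2:177828991-177840336, minus strand), with 14 fingers, kept reads in every mutant library. It had 550.8, 328.5, 1128 and 958.5 normalized counts in the controls and 26.5, 16.62, 28.71 and 54.58 in the mutants, where the underlying reads numbered 31, 18, 28 and 55. The mutant mean (31.6 ± 16.19, SD, n = 4) was 4.26% of the control mean (741.4 ± 366.7). The control mean was 23.79 times the level of the pooled mutant libraries (95% counting interval 20.06 to 28.44), and the genotypes did not overlap.

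Gm14326 (chr2:177935993-177957288, minus strand), with 15 fingers, was the only other row with reads in every mutant. It had 578, 356.2, 890.8 and 803.9 normalized counts in the controls and 28.21, 27.7, 36.91 and 39.69 in the mutants, from 33, 30, 36 and 40 reads. The mutant mean (33.13 ± 6.084, SD, n = 4) was 5.04% of the control mean (657.2 ± 240.1). The control mean was 20.03 times the level of the pooled mutant libraries (16.96 to 23.82). The ratio of Gm14325 to Gm14326 was 0.953, 0.922, 1.27 and 1.19 in the controls and 0.939, 0.6, 0.778 and 1.38 in the mutants, so neither gene alone carried the reads of any mutant library.

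Zfp971 (chr2:178023283-178035859, plus strand), with 12 fingers, closed the stretch. It had 565.8, 88.28, 486.4 and 362.4 normalized counts in the controls and 0 in all 4 mutants, so that the controls (375.7 ± 209.1, SD, n = 4) were at least 530.5-fold higher.

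**Figure D1:**
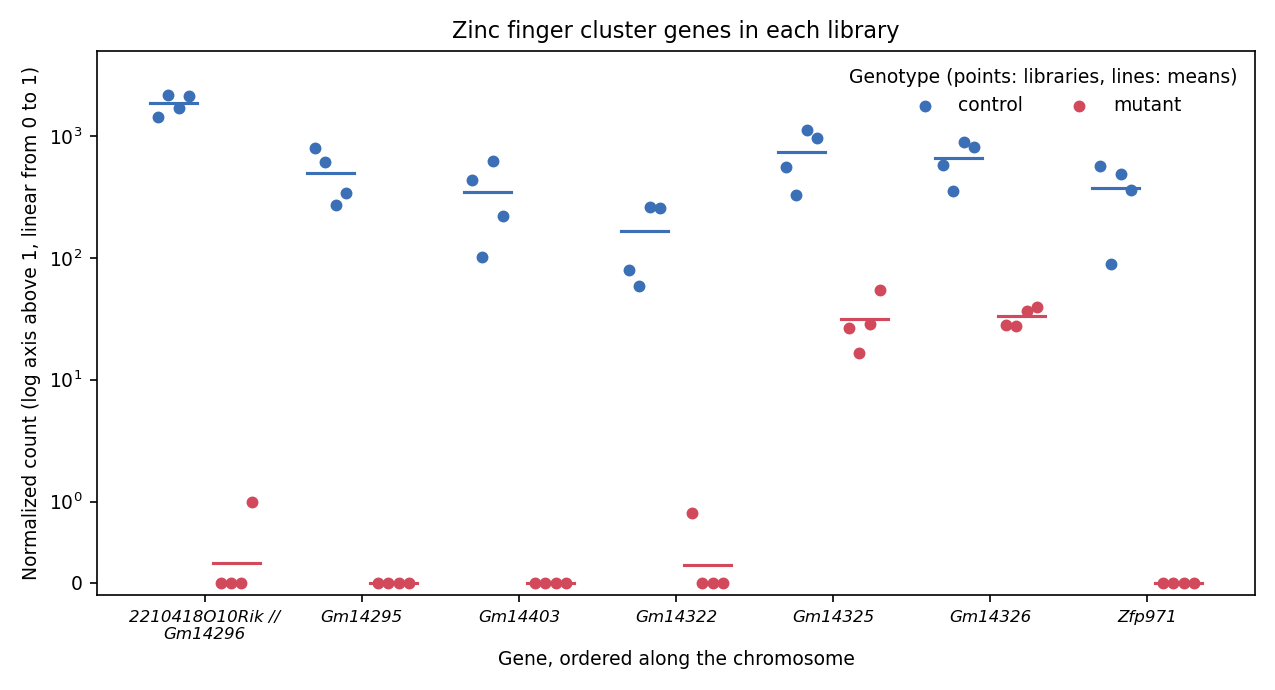
Normalized counts of the 7 rows in each of the 4 control (blue) and 4 mutant (red) libraries, in chromosomal order, with a line at each genotype's mean. The vertical axis is logarithmic above 1 and linear from 0 to 1. The mutants sit at 0 or at 1 read for 5 rows and between 16.62 and 54.58 for Gm14325 and Gm14326.

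Across the group, 3 rows were at 0 in every mutant, 2 had a single mutant read, and 2 kept low counts in every mutant. Of the 28 mutant values, 18 were at 0. Mutant replicates 2, 3, 4 and 5 had 4, 5, 5 and 4 of the 7 rows at 0, so no mutant library stood apart as the one with reads. The 7 rows summed to 4425, 3724, 5350 and 5080 normalized counts in the controls and to 55.57, 44.31, 65.62 and 95.26 in the mutants, nearly all of it from Gm14325 and Gm14326. All 7 passed the filter on low values, 5 of them only through the controls. In each row every mutant lay below every control, and so did the mutants within any batch that held both genotypes. That pattern was fixed by the selection; 2.17% of the 31171 genes tested had it, and nothing is read from the comparison.

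Control replicate 1, which had the Erbb4 level of the mutants, had between 79.07 and 1427 normalized counts for the 7 rows and so lay with the other controls. Within the controls the rows were not all high or low together. Control replicate 3 was the lowest library for 5 of them, yet the highest for 2210418O10Rik // Gm14296, whose ratio to Zfp971 was 2.52, 24.8, 3.48 and 5.9 in replicates 1, 3, 4 and 5. The coefficient of variation over controls ran from 19.6% to 67.4%, against a median of 45.1% over all genes tested.

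The genes that start between the first and the last of the 7 rows gave values that the selection did not use. They lie where the rows put the stretch, however, and some share transcript sequence or overlap with them, so they are no independent support. Of 17 such rows, 11 passed the filter, 10 were called lower (90.9%, beside 3.17% of all genes tested) and 0 were called higher (beside 3.98%), also 0 at an unadjusted p under 0.05 in limma and in edgeR and DESeq2. By adjusted p under 0.05 limma called 1 of the 11, beside 0.0449% of all genes, edgeR 0 and DESeq2 5. In 6 of them every mutant lay below every control (beside 2.17%). Of the 11, 8 passed the filter only through the controls, where they had to be the higher group, so the share called lower is shaped by the filter. The median log2 difference of the 11 was -4.74, beside 0.06 over all genes tested. The count called lower was 6 without control replicate 4 or control replicate 5.

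Gm14305, a zinc finger gene between 2210418O10Rik and Gm14295, had 304, 138.6, 341.3 and 463.8 normalized counts in the controls. In the mutants it was at 0 in 3 libraries and at 44.09 in replicate 4 (log2 difference -6.79, adjusted p = 0.225, limma). Gm14410 had 801.6, 199.1, 1071 and 1545 in the controls and 14.53, 11.08, 42.04 and 57.55 in the mutants (log2 difference -4.78, adjusted p = 0.0697, limma). Like Gm14325 and Gm14326, it kept low counts in all mutants.

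Zfp970, next to Gm14403, had 924.3, 157, 635.6 and 559 normalized counts in the controls and 5.13, 24, 31.78 and 15.88 in the mutants (log2 difference -4.81, adjusted p = 0.0603, limma). Zfp972 was low throughout, with 29.99, 0, 25.02 and 21.03 in the controls and 0 in the mutants. The row that passed the adjusted p was an unnamed gene at chr2:177184685-177186479, inside Gm14410. It had 230.4, 334.6, 601.5 and 582.5 in the controls and 0, 5.539, 12.3 and 0 in the mutants (adjusted p = 0.0351, limma).

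Another unnamed gene, at chr2:177936711-177939018, lies inside Gm14326. It had 268.6, 146.8, 379.3 and 453.9 normalized counts in the controls and 0, 2.77, 6.152 and 11.91 in the mutants (adjusted p = 0.0548, limma). An unnamed gene at chr2:177388085-177398321 covers nearly the same bases as Gm14418 of GENCODE and had 274, 0, 102.1 and 103.9 against 0, 0.9232, 2.051 and 0. The library kit does not mark strand, so reads of a gene and of one that overlaps it cannot be told apart. The other 3 rows called lower were unnamed genes at 177014992, 177822980 and 177824103, with at most 96.47 normalized counts in any library.

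Rows placed outside the stretch were mostly not called. A row that joins genes was placed by its listed position, so reads from inside the stretch can be among them. In Zfp966 // Zfp968 // Zfp967, placed before the stretch, Zfp967 lies inside it. The same holds for Zfp973 in Zfp973 // Zfp965. It also holds for Gm14434 and Gm14308 in Gm14430 // Gm14434 // Gm14308 // Gm4724 // Gm2007. Of 23 rows that start within 1 Mb on either side, 15 passed the filter, with a median log2 difference of -0.01. Of the 15, 1 was called lower (6.67%, beside 3.17% of all genes tested). In limma 0 were called higher (beside 3.98%), also 0 in edgeR and DESeq2. With so few rows, nothing is read from these counts. The row called lower was Gm2004, a zinc finger gene just before 2210418O10Rik. It had 49.08, 0, 34.03 and 32.16 normalized counts in the controls and 0, 0.9232, 0 and 0 in the mutants. Gm2004 was among the 2 flank rows that passed the filter only through the controls, where they had to be the higher group. Its call is therefore shaped by the filter.

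Gm2026, also before the stretch, had 111.8, 0, 97.09 and 79.16 in the controls and 160.7, 0, 268.6 and 519 in the mutants and did not pass the test. Zfp931, beyond Zfp971, had 117.2, 233, 149.1 and 192.9 in the controls and 124, 60.01, 418.3 and 246.1 in the mutants (log2 difference -0.01, unadjusted p = 0.99, limma). Phactr3, a regulator of protein phosphatase that follows Zfp931, had 4585, 3673, 3039 and 3898 against 3056, 3408, 2354 and 2828 and did not pass the test (unadjusted p = 0.0809, limma). The genotypes of all 3 overlapped.

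**Figure D2:**
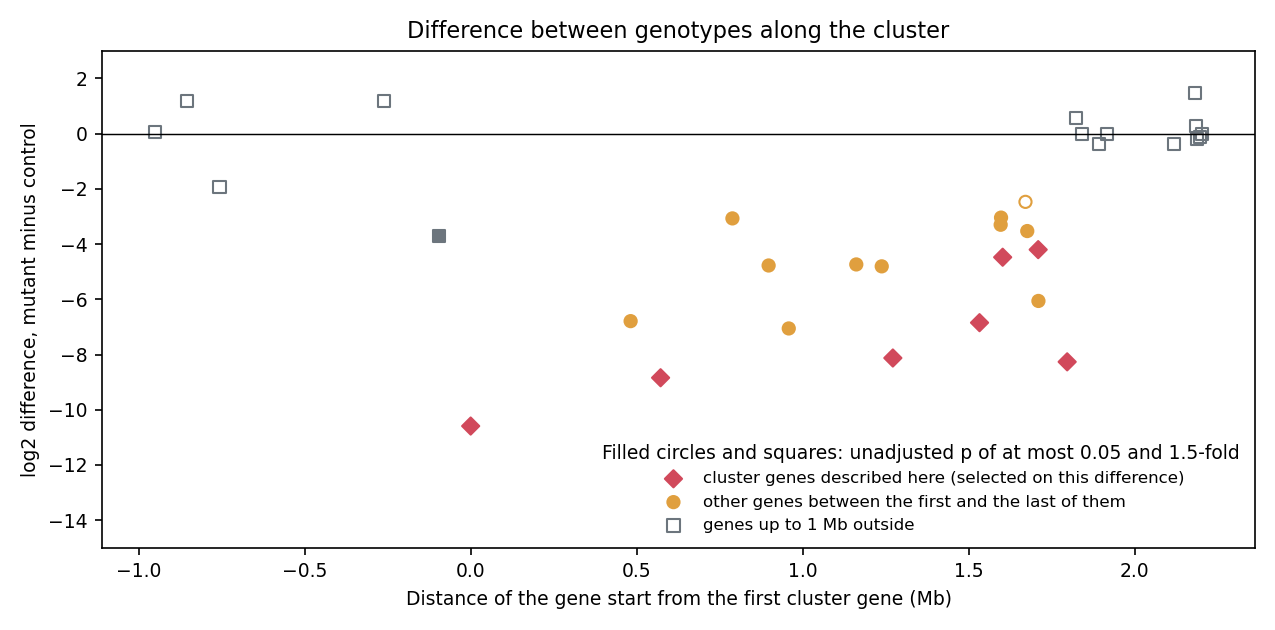
Log2 difference (mutant minus control, on log2 of the normalized count plus 1) of each row tested, against the distance of its start from the first of the 7 rows in Mb. Diamonds are the 7 rows, circles the 11 other rows between them and squares the 15 rows up to 1 Mb outside. Filled circles and squares passed an unadjusted p of at most 0.05 and 1.5-fold; the diamonds carry no test. For rows at 0 in the mutants the height depends on the added 1 and is no measured fold. All circles lie below 0, and the squares lie on both sides of it.

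The shared upstream run was not limited to rows that were low in mutants. Of the 26 genes that hold it, 25 are named in the table, in 17 rows: the 7 described and 10 others. Gm6710 // Gm14391, which holds it and lies before the stretch, had 1054, 906.4, 1288 and 947.4 normalized counts in the controls and 746.4, 1004, 1724 and 1750 in the mutants. Zfp966 // Zfp968 // Zfp967 had 0, 0, 58.05 and 28.45 in the controls and 0, 0, 318.9 and 141.9 in the mutants. Both of these rows join genes far apart on the chromosome, with Zfp967 inside the stretch, and each overlapped between genotypes.

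**Figure D3:**
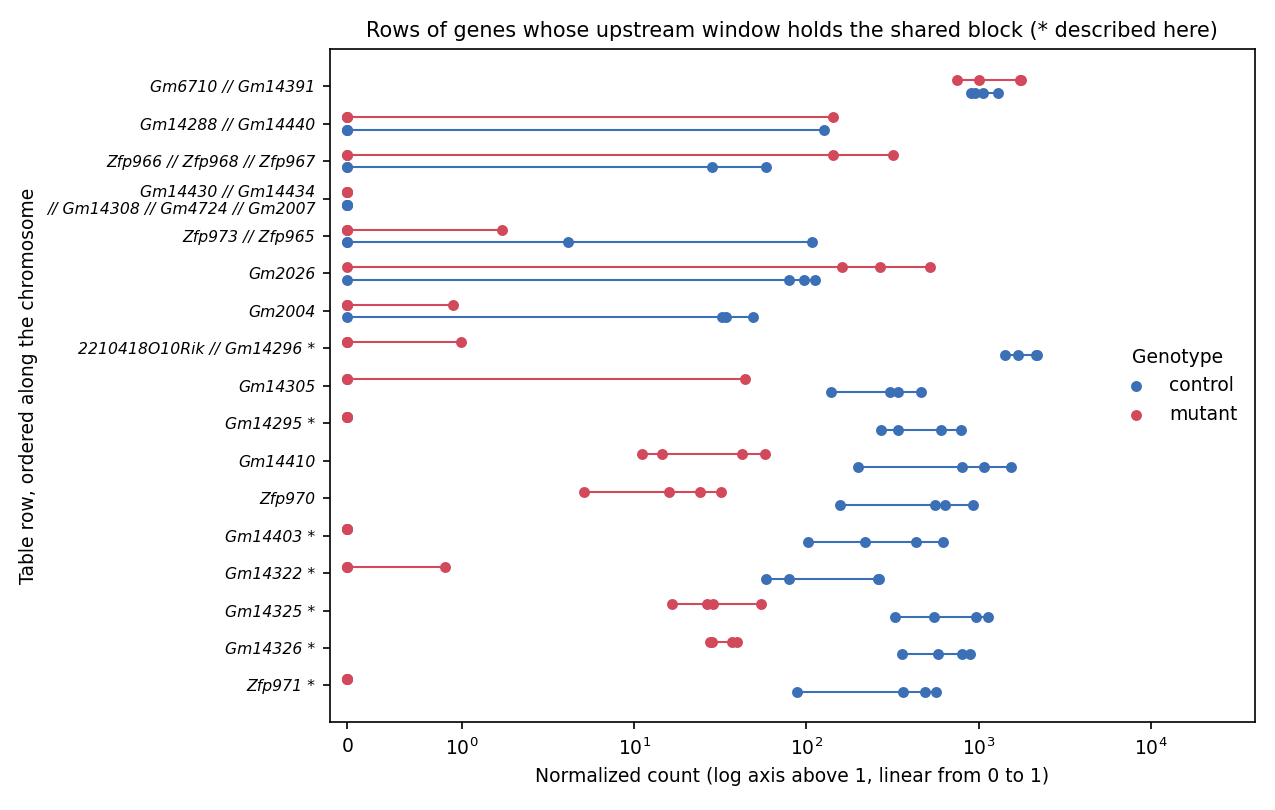
Normalized counts in each library for the 17 rows whose genes hold the 54-base run upstream, in chromosomal order from top to bottom, with controls in blue, mutants in red and a line over each genotype's range. The horizontal axis is logarithmic above 1 and linear from 0 to 1. Mutant points lie left of control points from 2210418O10Rik // Gm14296 downwards, while Gm6710 // Gm14391 and Gm2026 have mutant points as high as or above the controls.

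How far a read can be assigned to these genes depends on how alike their transcripts are. Of all runs of 50 bases (50-mers) in the GENCODE M21 transcripts of a row, the share also found in a transcript of another gene was 24.1% for 2210418O10Rik // Gm14296, counted with its 2 genes together. It was 36.1% for Gm14403, 51.1% for Zfp971, 74.8% for Gm14295, 82.2% for Gm14325, 85.4% for Gm14326 and 86.3% for Gm14322. Outside the stretch, the share was 98.4% for Gm2026, 100% for Gm2004 and 23.3% for Zfp931. Gm2026 shared 89.0% of its 50-mers with Gm14430 // Gm14434 // Gm14308 // Gm4724 // Gm2007, a row that joins genes inside and outside the stretch. The values of the rows with high shares are therefore uncertain, since reads could be left out or counted for a near copy.

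The 2 rows with reads in every mutant were among the 3 with the highest shares. Gm14325 shared 70.4% of its 50-mers with Gm14326, and Gm14326 shared 39.4% of its own with Gm14325. Gm14325 shared 70.3% and Gm14326 50.4% with Gm14399, which lies outside the stretch at chr2:175129493-175142012. The unnamed row that best covers Gm14399 had 418.5, 228.9, 97.09 and 79.16 normalized counts in the controls and 73.53, 72.93, 143.5 and 238.2 in the mutants. That row and Gm14399 overlap over 80.8% of their joint length. Whether reads from such copies account for the counts of Gm14325 and Gm14326 in the mutants was not tested.

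Counted by the pattern C, 2 residues, C, 12 residues, H, 3 to 5 residues, H in the longest GENCODE coding sequence, the fingers numbered 25 in Gm14295 (834 residues), 15 in Gm14326 (554), 14 in Gm14325 (498) and 12 in Zfp971 (470). Gm14403 had 9 (402 residues) and Gm14322 8 (358). No match to the pattern was found in 2210418O10Rik or in Gm14296, whose longest coding sequences have 249 residues each.

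Zinc finger genes at other places in the genome were counted by the same rule. Of 353 rows with a Zfp symbol outside the stretch and its flanks, 337 were tested. In limma 3 were called lower (0.89%, beside 3.17% of all genes) and 25 higher (7.42%, beside 3.98%), and 9 had every mutant above every control (beside 2.76% of all genes). By adjusted p under 0.05, limma and edgeR called 0 of them in either direction and DESeq2 1, where 5 lower and 27 higher had an unadjusted p under 0.05 in limma. The count called higher was 7 without mutant replicate 4, 10 without mutant replicate 5 and 13 without control replicate 1, and 39 and 47 without control replicates 5 and 4. It was 41 with a term that splits the libraries of each genotype into the 2 lower and the 2 higher replicate numbers. The 3 called lower were Zfp996, Zfp428 (log2 difference -0.79, limma) and Zfp579 (-0.64). Zfp996 had 16.36, 15.4, 17.02 and 34.63 normalized counts in the controls and 13.68, 0, 7.177 and 0 in the mutants. It was among the 3 of the 337 rows that passed the filter only through the controls. Such rows had to be higher in controls, so nothing is read from its call. The 4 highest log2 differences among those called higher were 3.26 for Zfp660, 1.92 for Zfp991, 1.64 for Zfp229 and 1.55 for Zfp945. That of Zfp660 rests on a control at 0 and the added 1, and was 1.38 in edgeR and in DESeq2, below the values of the other three there.

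The corepressor machinery of KRAB zinc finger proteins was covered by 24 genes found and tested of 26 listed. Trim28 itself had 9403, 7393, 9484 and 10280 normalized counts in the controls and 7782, 6800, 9200 and 8789 in the mutants, which overlapped (log2 difference -0.17, unadjusted p = 0.395, limma). In limma 0 were called lower (beside 3.17% of all genes tested), also 0 in edgeR and in DESeq2. In limma 1 was called higher (4.17%, beside 3.98% of all genes tested), near the share over all genes, so nothing is read from it. The gene called was Smarcad1, a chromatin remodeller that binds Trim28. It had 812.5, 1323, 1570 and 912.8 normalized counts in the controls and 1475, 1562, 2241 and 2260 in the mutants (log2 difference 0.73, adjusted p = 0.58, limma), and the genotypes overlapped. At an unadjusted p under 0.05 limma had 1 lower and 1 higher, and by adjusted p limma, edgeR and DESeq2 called 0. The 1 call was lost without control replicate 1, mutant replicate 4 or mutant replicate 5.

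The whole table was searched for rows near absent in either genotype, with limits that Gm14325 and Gm14326 did not meet. The other 5 of the rows described were selected for near absence in mutants, so nothing is read from their number. In the table, 7 rows had at most 3 reads in each mutant and at least 30 in each control, and 5 of them were cluster genes: 2210418O10Rik // Gm14296, Gm14295, Gm14403, Gm14322 and Zfp971. The other two were Serpina3m, a serine protease inhibitor on chromosome 12 (chr12:104387164-104394258), with 130, 78, 239 and 86 control reads, and an unnamed gene at chr1:66793645-66796300, with 123, 45, 131 and 60. Both had 0 reads in all 4 mutants. In the opposite direction 2 rows met the same limits. The counts depend on them: at 10 reads instead of 30 they were 9 rows near absent in mutants and 11 near absent in controls, at 100 reads 2 and 0, and without control replicate 5 they were 8 and 10. Tafa3, which encodes a secreted chemokine-like protein (chr3:104767405-104777547), had 0 reads in every control and 50, 67, 60 and 67 in the mutants. An unnamed gene at chr5:106652809-106655713 had 0, 2, 0 and 0 control reads and 52, 107, 52 and 45 mutant reads.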

How the data were processed

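Ribosome-bound RNA from synaptosomes of 8 libraries was sequenced by the authors, aligned with STAR 2.4.0 to mm10 and counted over constitutive regions of annotated genes. The deposited values are a signal: gene counts that the authors divided by DESeq2 size factors. In each library every value was a whole multiple (100% within 0.02) of its smallest value, so reads were recovered. Rows whose mean reached 10 in either genotype were fitted together with limma 3.58.1 (R 4.3.3) on log2(value + 1), a scale that understates changes of low genes. A call required an unadjusted p up to 0.05 and a change of 1.5-fold or more; adjusted p-values are Benjamini-Hochberg values over all genes tested. Tests were two-sided. edgeR 4.0.16 and DESeq2 1.42.0 on recovered reads were alternatives, and the limma step was checked on simulated data. Columns of the authors' comparison were not used. Intervals on read ratios are 95% and cover the counting error of the pooled mutant reads only. They take the control mean as fixed and leave out the spread between libraries. Upstream sequences came from the RefSeq table of GRCm38.p6, transcripts from GENCODE M21. The 7 rows and all lists were chosen with earlier results of these data known. Genes were named by rule: the 7 rows, stretch and flank genes called, genes with the same pattern of absence, the 4 lowest and 4 highest called of each list, and Erbb4. Gm2026, Zfp931, Phactr3, Gm6710 // Gm14391, Zfp966 // Zfp968 // Zfp967, Gm14399 and Trim28 were added after their values were seen. So were Zfp973 // Zfp965, Gm14288 // Gm14440 and Gm14430 // Gm14434 // Gm14308 // Gm4724 // Gm2007.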

Additional observations from a re-analysis of the deposited data

Results flagged for a closer look

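Groups of 4 libraries were looked at for the 7 rows, the other stretch rows called, Zfp931, Gm2026, Gm2004 and Erbb4. Of 36 groups, 6 had 1 library at a distance from the remaining 3. A rate of 1 in 20 would give about 1.8. A group with 3 values at 0 and 1 above 0 is always flagged, however, and the mutant values of the 7 rows were selected near 0. The number flagged therefore cannot be set against that rate. In 3 of them the library held a single read and the other mutants 0: 2210418O10Rik // Gm14296 in mutant replicate 5 (0.9923 normalized counts), Gm14322 in mutant replicate 2 (0.855) and Gm2004 in mutant replicate 3 (0.9232). For Gm14305, mutant replicate 4 had 44.09 and the remaining mutants 0. The unnamed gene at 177822980 had 2.051 in mutant replicate 4 and 0 in the others. The unnamed gene at 177014992 had 38.34 in control replicate 5 and 1.026 to 7.006 in the other controls.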

How the results depend on the processing

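Each of the 7 rows kept its direction under both scalings and without any 1 library. That was fixed by the selection on near absence in the mutants, so nothing is read from it. Without a library, the fold of controls over mutants ran from 2003 (the floor, without mutant replicate 5 and its single read) to 8496 for 2210418O10Rik // Gm14296, 168.2 (the floor, without mutant replicate 2) to 846.9 for Gm14322, 19.66 to 31.08 for Gm14325 and 17.66 to 23.09 for Gm14326. The Erbb4 difference stayed negative and past its threshold throughout, from -1.58 to -1.01. Stretch genes called lower numbered 10, and 6 to 8 without a library, 5 with a mean of at least 100 and 1 at an adjusted p under 0.05; 0 were called higher without any library. Flank genes called lower numbered 1, and 0 to 1 without a library, 0 with a mean of at least 100, 2 with edgeR and 3 with flanks of 2 Mb, where 1 was called higher. Zinc finger genes elsewhere called lower numbered 3, and 0 to 4 without a library, 1 with a pseudocount of 10, 0 with total reads and 0 at an adjusted p; those called higher numbered 25, and 7 to 47 without a library, 42 with total reads and 0 at an adjusted p. Corepressors called lower numbered 0, and 0 to 1 without a library; those called higher 1, and 0 to 3 without a library, 2 with edgeR, 2 with DESeq2, 3 with total reads and 0 at an adjusted p. Rows near absent in mutants numbered 7, 7 to 9 without a library, 2 at 100 reads and 9 at 10 reads; those near absent in controls 2, 2 to 10 without a library, 0 at 100 reads and 11 at 10 reads. Where not stated, the cause was not tested.

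No label ties libraries of the same number, and whether they are related was not tested. Their deviations correlated at 0.1, 0.0981 and 0.0823 across genes for replicates 3, 4 and 5. The values of replicates 3 and 4 were the highest of any control and mutant pair. Gm2026 was at 0 in replicate 3 of both genotypes and in no other library. Gm14288 // Gm14440 had 126.3 normalized counts in control replicate 3, 143.1 in mutant replicate 3 and 0 in every other library. Zfp966 // Zfp968 // Zfp967 was at 0 in control replicates 1 and 3 and mutant replicates 2 and 3 only. With a replicate block, 7 stretch genes and 0 flank genes were called lower, 33 zinc finger genes elsewhere and 2 corepressors were called higher, and Erbb4 differed by -1.68. The libraries also fell into 2 sets, the 2 lower and the 2 higher replicate numbers of each genotype: the 8 pairs of a control and a mutant within a set correlated at 0.0226 to 0.1 and the 8 across sets at -0.115 to -0.0292. Whether these are the sequencing batches is not given in the labels. With a term for the 2 sets, chosen after seeing the data, 10 stretch genes and 1 flank gene were called lower, 41 zinc finger genes elsewhere and 2 corepressors higher, and Erbb4 differed by -1.24. Shares of sequence depend on the run's length, a choice made after seeing the data: for Gm14403 the share was 58.2% with 30-mers and 4.95% with 100-mers, for Gm14326 91.8% and 61.6%.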
